A study of Sus scrofa with 6 samples.

Results

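The 52 genes described here carry the pathway entry ECM-receptor interaction, which joins the proteins of the extracellular matrix to the cell surface receptors that bind them. They were taken from the pathway column of the deposited tables, from 19465 genes in all, of which 4439 had any pathway entry. The rule that chose them used the pathway entry and no measured value, although it was written with earlier results of these data known. Their RNA was compared in 3 organs (hypothalamus, pituitary and ovary) of Landrace x Large White sows that had borne 1 litter (primiparous sows), taken in normal estrus or in anestrus, which the labels ascribe to ovaries that were inactive. There were 6 RNA sequencing libraries, 1 for each tissue and state, so the differences below have no replicate to check them. Per the labels 3 sows were sampled per state, and neither their age nor whether a library held the RNA of 1 sow or of several is stated. The anestrus was identified by the state of the ovary, so the ovary libraries differ in the tissue that defines the groups.

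The extracellular matrix is built of collagens, laminins and fibronectin, together with proteins such as thrombospondins and tenascins that bind to this scaffold and alter how cells attach to it. Cells hold it through integrins, receptors made of 1 alpha and 1 beta subunit whose pairing sets the ligand, and through other surface proteins such as syndecans and the hyaluronan receptor CD44. In the ovary, basement membranes of type IV collagen and laminin surround the follicles, and matrix is laid down and removed as follicles grow, ovulate, turn into corpora lutea or regress.

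Values are normalised read counts as deposited, 1 per library, and a gene is called "higher" or "lower" in the anestrous than in the estrous library of the same tissue. A ratio carries a 95% counting interval, an exact (Clopper-Pearson) interval from the reads that covers counting error only and not the difference between sows. A gene was counted as 2-fold different when its log2 fold, with 1 added to both values, was at least 1 in size. Genes were described in a tissue only when their mean normalised read count there was at least 10 (the floor). Levels that are set beside each other across tissues are in RPM, the reads of a gene for every 1000000 reads assigned to genes. The tables give no gene lengths, so values are compared between libraries for 1 gene and not between genes. In whole tissue, fewer cells of a type and less RNA per cell cannot be told apart.

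The 52 genes comprised 11 collagens, 4 laminin chains, fibronectin (FN1), 9 other matrix ligands, 10 integrin alpha chains, 5 integrin beta chains and 12 other receptors. The floor was passed by 45 of them in the hypothalamus, by another 45 (not all the same genes) in the pituitary and by 44 in the ovary. GP1BA, GP1BB, GP5 and GP6, the platelet receptors for von Willebrand factor and collagen, were under the floor in all 3 tissues, and 41 genes passed it in all 3. In the hypothalamus the members just above the floor were HMMR (mean 11) and CD36 (16.0), and those just below it were COMP (9.94) and ITGA11 (7.56). In the pituitary ITGA11 (10.5) and HMMR (12.4) lay just above, with GP1BB (9.49) and CD47 (8.89) just below. In the ovary COMP (34.9) and HMMR (58.4) were the lowest above it, and CD47 (6.57) and SV2A (6.53) the highest below it.

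Of these genes, 40 also carried the entry Focal adhesion and 40 the entry PI3K-Akt signaling pathway. Matched by symbol to the RefSeq annotation of Sscrofa11.1, all 52 were found, and 3 pairs of members were direct neighbours there: COL4A1 with COL4A2 on chromosome 11, ITGA1 with ITGA2 on chromosome 16, and COL4A5 with COL4A6 on chromosome X. Gene names are those of the deposited tables. A separate table of Ensembl gene names gave the same symbol for 41 of the 52 rows and none for 9. It named the VWF row ANO2 and the ITGA2B row GPATCH8, so the values of VWF and ITGA2B are less certain to belong to those genes. CD47, TNN and GP6 each occur in a second row without the pathway entry.

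The libraries held 15314325 to 17384789 reads assigned to genes. The marker genes fixed for each tissue were present in it. Pituitary hormone genes summed to 248751 RPM in the estrous and 259505 in the anestrous pituitary library, hypothalamic peptide genes to 1876 and 919 in the hypothalamus, and granulosa cell genes to 6512 and 1075 in the ovary.

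The matrix-receptor genes differed more in the ovary than in the other tissues, as did all genes. The ovary libraries had 17 members higher by 2-fold or more in anestrus and 5 lower by as much, of 44 over the floor. Among all 13193 genes over the floor in the ovary, 13.6% were 2-fold higher and 10.7% were 2-fold lower, so the members' share of higher genes (38.6%) was above that of all genes, and their share of lower genes (11.4%) was near it. The receptors accounted for most of the higher genes, with 12 of 21 higher and 1 lower, while the ligands had 5 of 23 higher and 4 lower. The median log2 fold was 1.14 over the receptors and -0.33 over the ligands, beside 0.0054 over all genes. When the 2 library totals were made equal instead, every log2 fold in the ovary moved by -0.20, the members' counts became 14 higher and 8 lower, and those of all genes 10.5% and 14.3%. The medians of receptors and ligands kept their signs there, at 0.94 and -0.53. All 6 granulosa cell markers were at least 2-fold lower in the anestrous ovary. So were 4 of 5 theca and luteal markers (summed level 8624 RPM in estrus and 3497 in anestrus), 4 of 5 oocyte markers over the floor (170 and 52.4 RPM) and 3 of 4 epithelial markers over the floor (71.7 and 33.4 RPM). The other theca and luteal marker and the other epithelial marker over the floor were at least 2-fold higher instead. The part of these cell types in the members' values was not tested.

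**Figure D1:**
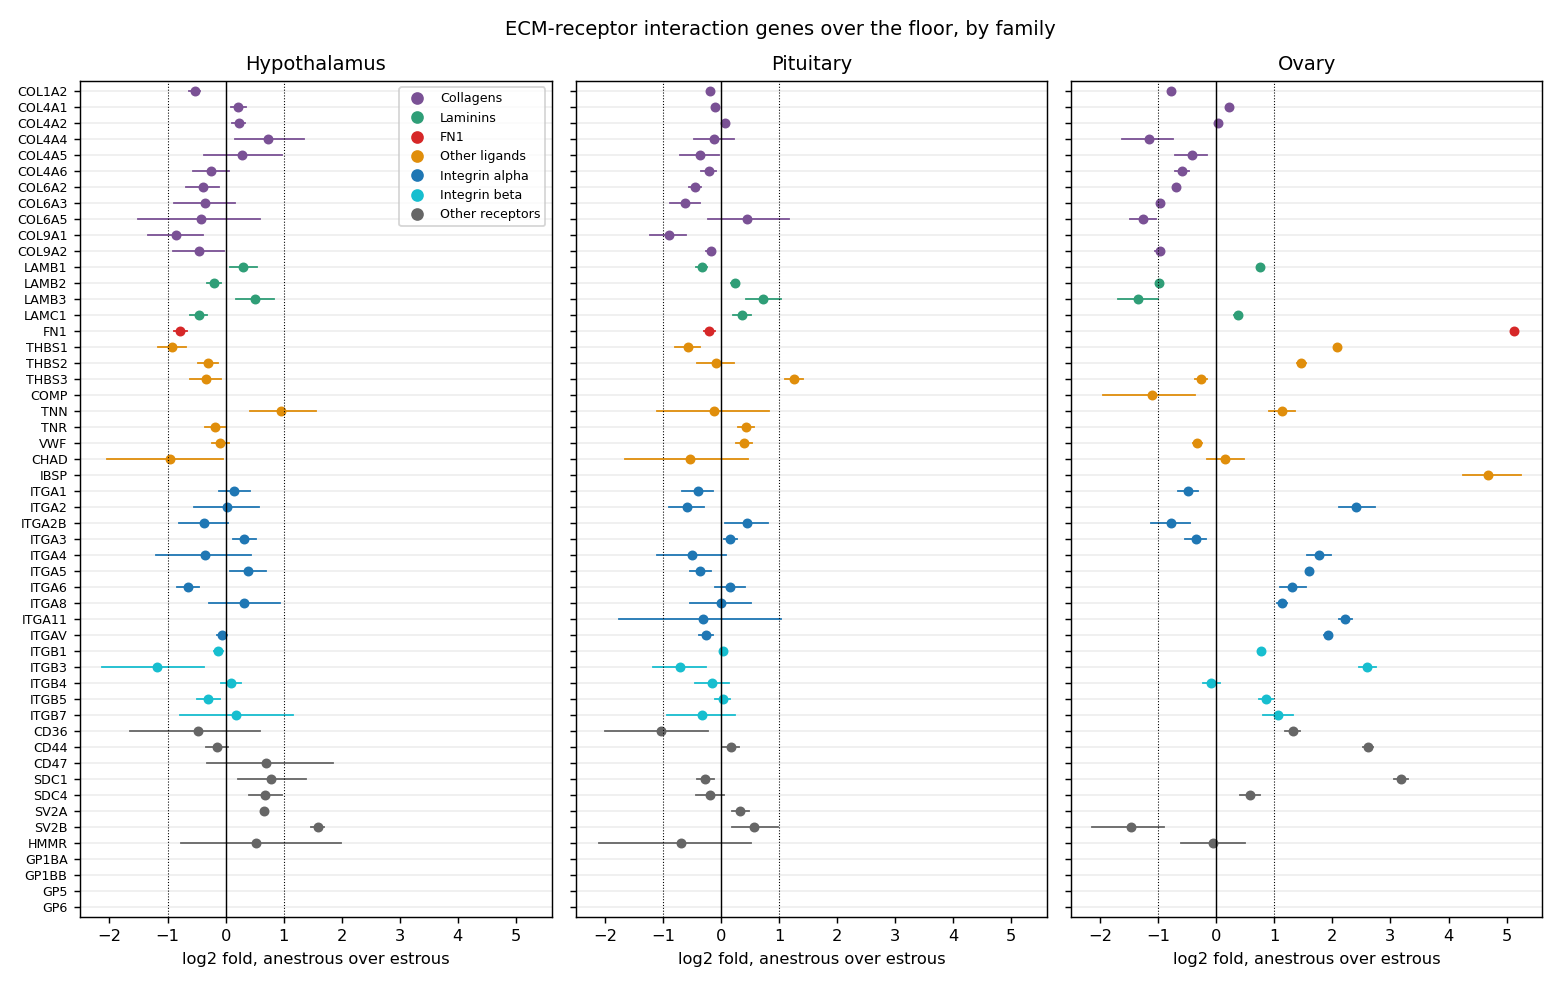
Log2 fold (anestrous over estrous, 1 added to both values) of each member over the floor in the hypothalamus, pituitary and ovary, coloured by family; lines are 95% counting intervals and dotted lines mark a 2-fold difference. In the ovary FN1 lies at 5.13, most integrin chains lie above 0 and most collagens below it, while points of the hypothalamus and pituitary stay mostly between the dotted lines.

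Most collagens that carry the pathway entry were lower in the anestrous ovary, while those without it were not (13 of 20 above 0, median 0.35). Of the 10 with the entry over the floor, none was 2-fold higher, 2 were 2-fold lower and 8 had a log2 fold below 0, with a median of -0.74. Most fibroblast marker genes were lower too: 2 of 7 had a log2 fold above 0, 1 was 2-fold higher and 3 were 2-fold lower. Their summed level was 6911 RPM in the estrous and 3342 in the anestrous library, all 7 of them being present. PDGFRA, which was also on that list, was not found by name. Smooth muscle and pericyte markers summed to 6674 and 4952. The part of these cell types in the collagen values was not tested.

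COL1A2, a chain of the fibrillar type I collagen that gives connective tissue its tensile strength, had a normalised read count of 137514 in the estrous and 79875 in the anestrous ovary, 1.72-fold lower (1.71 to 1.74). The type VI collagen chains, which form microfibrils around cells, were lower by a similar amount. COL6A2 went from 17189 in estrus to 10667 in anestrus, 1.61-fold lower (1.57 to 1.65), and COL6A3 from 25747 to 13155, 1.96-fold lower (1.92 to 2.0). COL6A5 had 600.4 and 251, which was 2.39-fold lower (2.06 to 2.79). COL9A2, a chain of the cartilage collagen type IX that sits on the surface of fibrils, had 3344 and 1698, 1.97-fold lower (1.86 to 2.09), and COL9A1 had 0 reads in both ovary libraries, where a count of 0 allows up to 3 reads each. Of these fibril and microfibril collagens, the 5 with reads were thus lower, 4 of them by 1.61-fold to 1.97-fold.

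The type IV collagens, the network-forming chains of basement membranes, did not move together. COL4A1 and COL4A2, which are transcribed from a shared promoter and assemble with each other in nearly all basement membranes, stayed close to equal between the libraries. COL4A1 had 33049 in estrus and 38325 in anestrus, a ratio of 1.16 (1.14 to 1.18), and COL4A2 had 34899 and 35506, a ratio of 1.02 (1.00 to 1.03). With equal library totals COL4A2 was slightly lower instead of higher. The chains with a narrower tissue range were lower: COL4A4 had 148 and 65.6 (2.26-fold lower, 1.67 to 3.07), COL4A5 had 263 and 196 (1.34-fold lower, 1.11 to 1.63) and COL4A6 had 1419 and 947 (1.5-fold lower, 1.38 to 1.63).

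The 4 laminin chains split, with a median log2 fold of -0.31. The beta 1 chain gene LAMB1 had 4730.0 in the estrous and 7967 in the anestrous ovary, 1.68-fold higher (1.62 to 1.75). Its alternative in the laminin trimer, the beta 2 chain gene LAMB2, had 14329 and 7218, 1.99-fold lower (1.93 to 2.04). Both chains can join the gamma 1 chain, whose gene LAMC1 had 2792 and 3628, a ratio of 1.30 (1.24 to 1.37). LAMB3, a chain of the laminin that anchors epithelia, had 257 and 101, 2.55-fold lower (2.01 to 3.25). LAMB1 therefore held 24.8% (24.2 to 25.4) of the reads of the LAMB1 and LAMB2 pair in the estrous ovary and 52.5% (51.7 to 53.3) in the anestrous ovary.

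In the other tissues the LAMB1 share differed less, and it was higher in anestrus in the hypothalamus and lower in the pituitary. It was 16.7% and 22.1% in the hypothalamus and 42.0% and 32.8% in the pituitary (estrous and anestrous). By contrast, COL4A1 held 48.6% of the reads of the COL4A1 and COL4A2 pair in the estrous ovary and 51.9% in the anestrous ovary, 42.4% and 42.3% in the hypothalamus, and for the pituitary 53.7% and 50.6%. Such shares of reads also depend on the lengths of the transcripts, so only their change between libraries is read here.

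**Figure D2:**
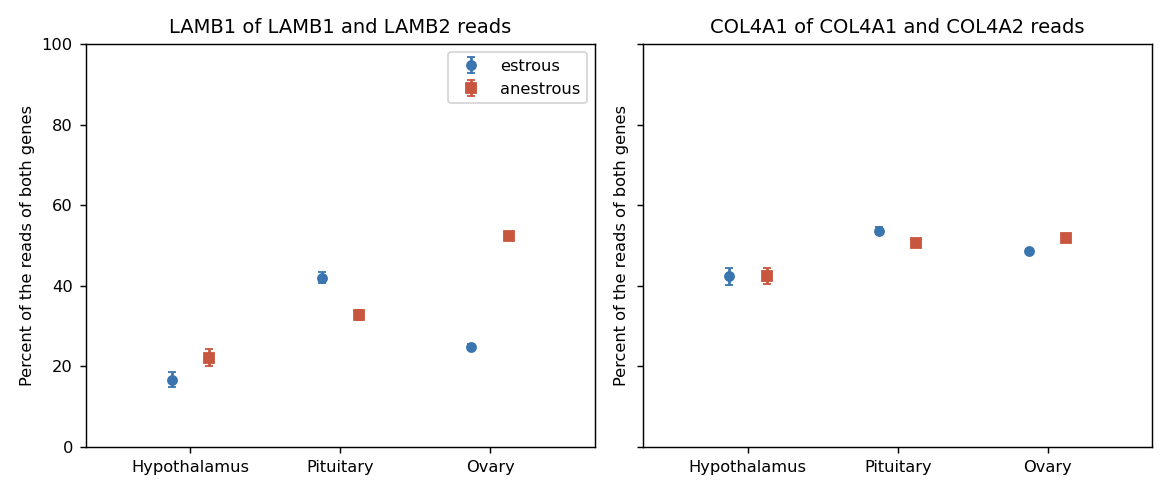
Percent of the reads of a gene pair that fell in the first gene, in each tissue and state, with 95% exact binomial intervals: LAMB1 of LAMB1 and LAMB2 (left) and COL4A1 of COL4A1 and COL4A2 (right). The LAMB1 share went from 24.8% in the estrous to 52.5% in the anestrous ovary, while the COL4A1 share stayed between 42.3% and 53.7% in all 6 libraries.

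FN1 had the largest log2 fold among the members, followed by IBSP. Fibronectin is the soluble and fibrillar glycoprotein that bridges collagen to integrins and is assembled into fibrils by the receptor of ITGA5 and ITGB1. The FN1 normalised read count was 6862 in the estrous ovary and 240935 in the anestrous ovary, 35.1-fold higher (34.3 to 36.0; log2 fold 5.13). This was 7143 and 231444 reads, or 0.0461% and 1.41% of all reads assigned to genes. In the authors' deposited table the adjusted p of FN1 in the ovary was 1. With equal library totals the log2 fold was 4.93. FN1 was on the other side of 0 in the other tissues, with 1906 and 1111 in the hypothalamus (1.71-fold lower, 1.59 to 1.85) and 2101 and 1829 in the pituitary (1.15-fold lower, 1.08 to 1.22).

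**Figure D3:**
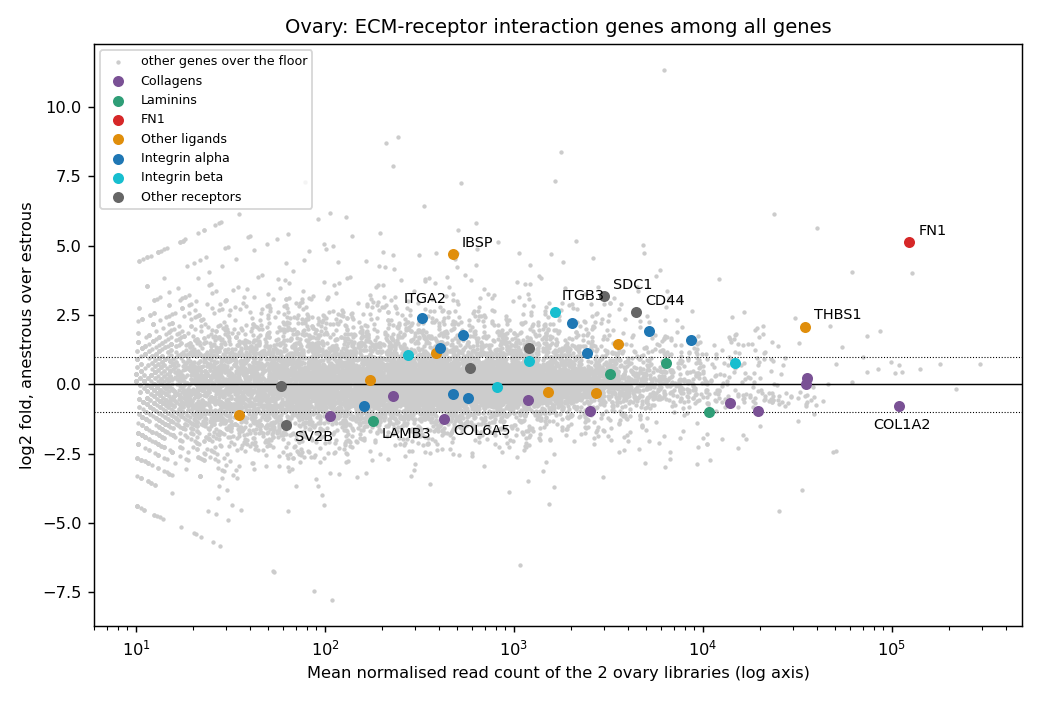
Mean normalised read count of the 2 ovary libraries (log axis) against log2 fold (anestrous over estrous) for every gene over the floor, with members coloured by family and dotted lines at a 2-fold difference. FN1 combines a log2 fold of 5.13 with one of the highest read counts, and COL1A2, at a similar read count, lies below 0.

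Of the other matrix ligands, 4 of 8 were at least 2-fold higher in the anestrous ovary and 1 was lower, and 5 lay above 0, with a median log2 fold of 0.64. When library totals were made equal, 3 were 2-fold higher, 4 lay above 0 and 4 below, and the median was 0.44. THBS1, a thrombospondin that binds CD36 and CD47, restrains vessel growth and can activate latent TGF-beta, had 13186 in the estrous and 55879 in the anestrous library, 4.24-fold higher (4.16 to 4.32). Its close relative THBS2 had 1889.5 and 5218, 2.76-fold higher (2.62 to 2.91). THBS3, of the pentameric thrombospondins, had 1663 and 1382, a ratio of 0.831 (0.773 to 0.894), and COMP, the cartilage member of that subgroup, had 48.0 and 21.9 (2.20-fold lower, 1.30 to 3.85). Among the members, THBS1 and THBS2 were thus higher and THBS3 and COMP lower. THBS3 was only 1.20-fold lower, and COMP rests on 50 and 21 reads.

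IBSP, bone sialoprotein, an integrin-binding protein of mineralised matrix, had 34.6 in estrus and 915 in anestrus, 26.5-fold higher (19 to 38). It was the ligand with the next largest log2 fold after FN1, at 4.69, and the authors' deposited table gave it an adjusted p of 0.000173 in the ovary. Of all genes over the floor in the ovary, 0.819% had an adjusted p of at most 0.05 in the authors' deposited table, and 2 of the 44 members did, IBSP and SDC1. TNN, a tenascin, had 241 and 528 (2.19-fold higher, 1.88 to 2.56), and its second row, without the pathway entry, had 95.1 and 210.3 (2.21-fold higher, 1.73 to 2.84). VWF, the platelet-binding protein of endothelium, had 3039 and 2417 (1.26-fold lower, 1.19 to 1.33), and CHAD, a cartilage leucine-rich repeat protein, had 164 and 183, with an interval that included equal levels (ratio 1.12, 0.899 to 1.38). Endothelial markers summed to 827 RPM in the estrous and 856 in the anestrous ovary, with 5 of 7 above 0. TNR, the tenascin of brain tissue, was under the floor in the ovary.

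After FN1, a family of 1 gene, the integrin chains had the largest share of 2-fold higher members in the anestrous ovary. All 15 passed the floor, 9 were at least 2-fold higher, none was 2-fold lower, and 11 had a log2 fold above 0, with a median of 1.14. With equal library totals 7 were 2-fold higher, still none lower, and the median was 0.94. Macrophage markers were higher as well, with 6 of 7 over the floor above 0 and a median log2 fold of 1.21. Among them, CSF1R had 169 and 2539 normalised reads, a larger difference than that median. The summed level of these markers was 737 RPM in the estrous and 1190 in the anestrous library. Their part in the integrin values was not tested.

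Among the alpha chains that bind the RGD motif found in fibronectin and vitronectin, 3 of 4 were 2-fold higher. ITGAV, the alpha chain shared by the vitronectin-type receptors, had 2172 in the estrous and 8200.0 in the anestrous ovary, 3.78-fold higher (3.60 to 3.96). ITGA5, which makes the main fibronectin receptor with ITGB1, had 4280.5 and 13006, 3.04-fold higher (2.94 to 3.14). ITGA8, an RGD receptor of mesenchymal cells, had 1516 and 3337, 2.20-fold higher (2.07 to 2.34). ITGAV, ITGA5 and ITGA8 were thus higher in the library in which FN1 was higher. ITGA2B, the alpha chain of the platelet fibrinogen receptor, was the exception in this class, with 203 and 118 (1.72-fold lower, 1.36 to 2.18). The platelet markers were at or near 0, with a summed level of 0.129 and 0.791 RPM and PF4 and PPBP at 0 in both ovary libraries.

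The collagen-binding alpha chains differed among themselves. ITGA11, a receptor of fibroblasts for fibrillar collagen, had 716 in estrus and 3346 in anestrus, 4.68-fold higher (4.32 to 5.07). ITGA2, found on epithelium and platelets, had 103 and 549.7, 5.35-fold higher (4.34 to 6.65). ITGA1, its genomic neighbour, had 665 and 474, 1.40-fold lower (1.25 to 1.58). ITGA11 and ITGA2 were thus higher, and ITGA1 lower, in the anestrous library. COL1A2 was lower there, while COL3A1 and COL5A2, fibrillar collagens without the pathway entry, were higher. These 2 were chosen after their values were seen. Of the 20 collagens without the entry over the floor, 13 lay above 0, 6 were 2-fold higher and 3 were 2-fold lower.

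The laminin-binding alpha chains also split. ITGA6 had 232 and 578, 2.49-fold higher (2.13 to 2.90), while ITGA3 had 535 and 417, 1.28-fold lower (1.13 to 1.46). ITGA4, a leukocyte chain that binds VCAM1 and fibronectin and pairs with ITGB1 or ITGB7, had 244 and 834, 3.42-fold higher (2.96 to 3.95). One laminin receptor chain of this pair was thus higher and the other lower.

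Of the beta chains, ITGB3 differed most. It pairs with ITGAV or ITGA2B, and it had 464 in the estrous and 2814 in the anestrous ovary, 6.06-fold higher (5.50 to 6.70; log2 fold 2.60). ITGB1, the common partner of most alpha chains, had 10869 and 18536, 1.71-fold higher (1.67 to 1.75). ITGB5, another partner of ITGAV, had 850.1 and 1537, 1.81-fold higher (1.66 to 1.97). ITGB7 had 178 and 372, 2.09-fold higher (1.75 to 2.51). The ITGB4 chain, which pairs only with ITGA6 in the hemidesmosomes of epithelium, had 838 and 789, and its interval included equal levels (ratio 0.942, 0.854 to 1.04). Among the partners of ITGAV, ITGB3 thus differed more than ITGB5 or ITGB1, and ITGB3 held 4.09% of the reads of ITGB3 and ITGB1 together in estrus and 13.2% in anestrus.

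**Figure D4:**
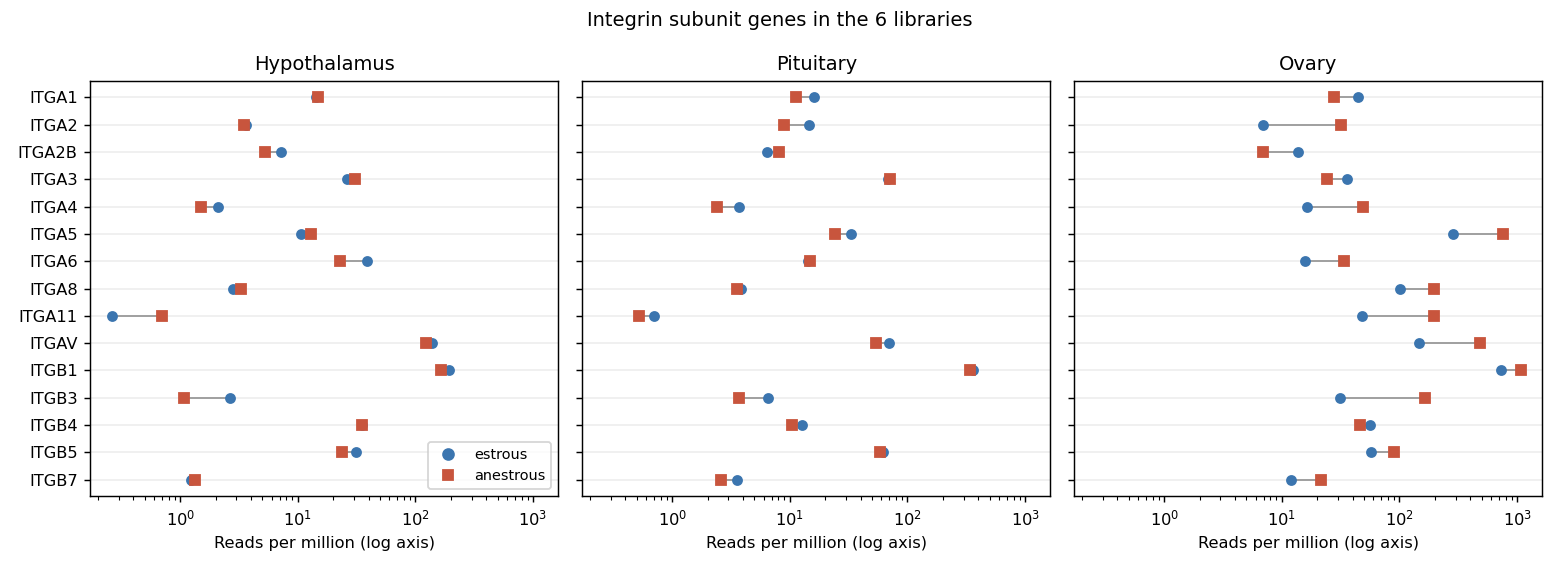
Levels in RPM (log axis) of the 15 integrin chain genes in the estrous (circles) and anestrous (squares) library of each tissue, joined by a line; ITGA11 in the hypothalamus was under the floor. In the ovary ITGAV goes from 146 to 479 and ITGB3 from 31.2 to 164, whereas in the hypothalamus and pituitary most pairs of symbols lie close together.

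Other receptors were mixed, with 3 of 6 over the floor 2-fold higher and 1 lower. SDC1, syndecan 1, a heparan sulfate proteoglycan that binds fibronectin, collagens and growth factors, had 596 in the estrous and 5382 in the anestrous ovary, 9.04-fold higher (8.31 to 9.84), and the authors' deposited table gave it an adjusted p of 0.0327. CD44, the hyaluronan receptor, had 1242 and 7624, 6.14-fold higher (5.79 to 6.52). CD36, the thrombospondin and fatty acid receptor, had 689 and 1714, 2.49-fold higher (2.28 to 2.72). CD36 and its ligand gene THBS1 were both higher. SDC4, the syndecan of focal adhesions, had 471 and 701 (ratio 1.49, 1.32 to 1.68). HMMR, a hyaluronan-binding protein of the mitotic spindle, had 59.6 and 57.3, with an interval that included equal levels (0.656 to 1.40). SV2B, a synaptic vesicle protein, had 91.3 and 32.3 (2.83-fold lower, 1.87 to 4.39). CD47, the receptor that signals to phagocytes and binds thrombospondin 1, was under the floor in the row with the pathway entry (4.80 and 8.33), while its second row had 409 and 731 (ratio 1.79, 1.58 to 2.02).

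The pathway entry covers only part of these families in the deposited tables, and 54 further rows of the same families lack it. Of these, 45 passed the floor in the ovary, 12 were 2-fold higher and 9 lower, with a median log2 fold of 0.26. Among all genes over the floor there, 13.6% were higher and 10.7% lower, so these rows were above both shares. The collagens without the entry did not share the lower values of those with it, with 13 of 20 above 0 and a median of 0.35. Chosen after their values were seen, COL3A1, the fibrillar collagen that accompanies type I collagen in soft tissue, had 114005 in the estrous and 168652 in the anestrous ovary (1.48-fold higher, 1.47 to 1.49), COL5A2 had 7091 and 22049 (3.11-fold higher, 3.03 to 3.19), and LAMC3, a laminin gamma chain, had 17097 and 3859 (log2 fold -2.15). The lower collagen values therefore describe the collagens that carry the entry and not all collagen genes. TNC, the tenascin of wound and remodelling tissue, had 286 and 9338 (32.6-fold higher, 29.1 to 36.7), and ITGB2, the leukocyte beta chain, had 1358 and 5314 (3.91-fold higher, 3.69 to 4.15). Integrins without the entry had 5 of 6 above 0 and a median of 1.27.

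Lists of genes that act on the same matrix or downstream of the same receptors are set beside the ovary shares of all genes, 13.6% higher and 10.7% lower. Matrix proteases and their inhibitors had 9 of 21 rows 2-fold higher and 3 lower (median log2 fold 0.66), led by the collagenase genes MMP13 (11.32) and MMP1 (4.74), the inhibitor TIMP1 (4.04) and the urokinase receptor PLAUR (3.07). Genes of collagen maturation had 4 of 16 higher and 1 lower (median 0.47), with the crosslinking enzymes LOXL4 at 2.83 and LOX at 1.96, the prolyl hydroxylase P4HA3 at 1.93, and the procollagen processing enhancer PCOLCE at -1.22. Genes of TGF-beta signalling had 6 of 15 higher and 1 lower (median 0.45), among them LTBP2 (2.0), TGFBR1 (1.84), CTGF (1.82) and LTBP1 (1.67). The intracellular focal adhesion genes, which link integrins to actin, had 2 of 17 higher and 2 lower (median 0.34), with FERMT3, the kindlin of blood cells, at 2.25, ACTN1 at 1.05, CAV1 at -1.29 and TLN2 at -1.73. The share of the focal adhesion genes that differed was thus near that of all genes each way. Elastic fibre and other matrix genes had 5 of 22 rows higher and 6 lower (median -0.36), with ECM1 at 3.91, POSTN at 3.50, FBLN2 at 2.23 and FBN2 at -2.89.

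In the hypothalamus most members differed little between the libraries. Of 45 over the floor, 1 was 2-fold higher (SV2B) and 1 was 2-fold lower (ITGB3), that is 2.22% each way, near the shares of all 13587 genes over the floor (1.99% higher and 2.61% lower). The median log2 fold was -0.13 over the members and -0.0016 over all genes. Of the ligands, 16 of 23 had a log2 fold below 0, with a median of -0.30. Of the receptors, 13 of 22 lay above 0, with a median of 0.12, beside 49.8% of all genes above 0, and the difference between ligands and receptors was not tested. With equal library totals every log2 fold moved by -0.09, the counts became 1 higher and 4 lower (all genes 1.59% and 3.27%), and the receptors were divided evenly, 11 above and 11 below 0.

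The collagens of fibrils and microfibrils were lower in the anestrous hypothalamus, as in the ovary. COL1A2 had 2195 in the estrous and 1516 in the anestrous library (1.45-fold lower, 1.36 to 1.55), and COL6A2 had 247 and 188 (1.31-fold lower, 1.08 to 1.60). COL9A1 had 112 and 62.0 (1.81-fold lower, 1.32 to 2.51) and COL9A2 had 105 and 76.2 (1.38-fold lower, 1.02 to 1.88), while the intervals of COL6A3 (71.9 and 55.9) and COL6A5 (20.7 and 15.2) included equal levels. The basement membrane pair went the other way, with COL4A1 at 898 and 1047 (ratio 1.17, 1.07 to 1.28) and COL4A2 at 1221 and 1428 (ratio 1.17, 1.08 to 1.26). COL4A4 had 39.4 and 66.0 (ratio 1.68, 1.11 to 2.55), COL4A5 had 36.4 and 44.7, and COL4A6 had 195 and 165. The intervals of COL4A5 and COL4A6 included equal levels. Fibroblast markers of the hypothalamus had 1 of 4 above 0 and summed to 120 RPM in estrus and 83.9 in anestrus, and choroid plexus markers summed to 173 and 74.5. Their part in the collagen values was not tested.

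Laminins in the hypothalamus again split, LAMB1 and LAMB3 being higher and LAMB2 and LAMC1 lower. LAMC1 had 958 and 695 (1.38-fold lower, 1.25 to 1.52) and LAMB3 139 and 197 (1.42-fold higher, 1.14 to 1.78). LAMB1 had 273 and 336 and LAMB2 1357 and 1184.

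Among the other ligands in the hypothalamus, 6 of 7 were below 0. THBS1 had 412 in estrus and 217 in anestrus (1.90-fold lower, 1.61 to 2.25), the opposite of its direction in the ovary. THBS2 had 638 and 519, THBS3 258 and 203, TNR 592 and 519, VWF 715 and 673, and CHAD 28.5 and 14.2. TNN was the one above 0, with 41.3 and 81.3 (ratio 1.97, 1.34 to 2.93).

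Integrins of the hypothalamus lay evenly around 0, with 7 of 14 above it. ITGB3 had 40.4 in estrus and 17.3 in anestrus (2.34-fold lower, 1.30 to 4.39), which rests on 41 and 17 reads. ITGA6 had 579.8 and 369.8 (1.57-fold lower, 1.37 to 1.79). ITGB1 had 2920.4 and 2672 and ITGAV had 2070.0 and 1984, 1.09-fold and 1.04-fold lower, so the chains shared by most receptors were nearly level. ITGB5 had 469.5 and 382 (1.23-fold lower, 1.07 to 1.41). Of the higher chains, ITGA3 had 393 and 491 (ratio 1.25, 1.09 to 1.43) and ITGA5 had 160.4 and 209 (ratio 1.30, 1.06 to 1.61). ITGA1, ITGA2, ITGA2B, ITGA4, ITGA8, ITGAV, ITGB4 and ITGB7 had intervals that included equal levels.

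The synaptic vesicle genes gave the largest difference among the receptors of the hypothalamus. SV2B had 813 in the estrous and 2440.3 in the anestrous library, 3.00-fold higher (2.77 to 3.25), and the authors' deposited table lists an adjusted p of 1.62e-05 for it. It was the only member under an adjusted p of 0.05 in this tissue, beside 0.868% of all genes over the floor in the authors' deposited table. SV2A, the form found at most synapses, had 6308 and 9933, 1.57-fold higher (1.53 to 1.63). Neuron markers were higher too, with 5 of 5 above 0, their log2 folds between 0.42 and 0.83 and their summed level 3126 RPM in the estrous and 4205 in the anestrous library, and astrocyte markers summed to 17156 and 11755. Their part in the values of SV2A and SV2B was not tested. SDC4 had 171 and 276 (ratio 1.61, 1.33 to 1.96) and SDC1 40.4 and 70.1 (ratio 1.74, 1.16 to 2.62). CD44 had 490.2 and 443, CD47 12.8 and 21.3, CD36 18.7 and 13.2 and HMMR 8.86 and 13.2, each with an interval that included equal levels.

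In the pituitary, too, few members differed, with 1 of 45 at least 2-fold higher (THBS3) and 1 lower (CD36), 2.22% each way. Among all 13144 genes over the floor 2.27% were higher and 4.23% lower. The median log2 fold of the members was -0.18, beside -0.0025 over all genes, and 29 of 45 lay below 0. With equal library totals every log2 fold moved by -0.12, and COL9A1 joined CD36 as 2-fold lower, with 1.82% and 5.33% of all genes higher and lower.

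Collagens were below 0 in the pituitary in 9 of 11 cases, with a median log2 fold of -0.18. COL9A1 had 255 in the estrous and 136 in the anestrous library (1.87-fold lower, 1.51 to 2.33), COL6A3 had 314 and 205 (1.53-fold lower, 1.28 to 1.84) and COL6A2 had 1992 and 1463 (1.36-fold lower, 1.27 to 1.46). COL1A2 had 7665 and 6754 (1.13-fold lower, 1.10 to 1.17) and COL9A2 had 3384 and 2994, again 1.13-fold lower (1.08 to 1.19). The type IV chains differed by 1.28-fold or less, COL4A1 at 6582 and 6135 and COL4A2 at 5679.9 and 5981, with COL4A4 at 153 and 140.0, COL4A5 at 172 and 134 and COL4A6 at 985 and 850.3. COL6A5 had 32.1 and 44.3, with an interval that included equal levels. Fibroblast markers of the pituitary had 1 of 6 above 0 and summed to 464 RPM in estrus and 335 in anestrus, and the collagens without the pathway entry had 4 of 21 above 0. The part of fibroblasts in these values was not tested.

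Laminins of the pituitary went against the collagens, with 3 of 4 above 0. LAMB3 had 144 and 239 (1.66-fold higher, 1.35 to 2.06), LAMC1 had 615 and 795 (1.29-fold higher, 1.16 to 1.44) and LAMB2 had 3071 and 3623 (1.18-fold higher, 1.12 to 1.24). LAMB1 had 2226 and 1769, 1.26-fold lower (1.18 to 1.34). All 3 beta chains thus lay on the opposite side of equal from their side in the ovary.

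THBS3 was the ligand that differed most in the pituitary, with 499 in estrus and 1195 in anestrus, 2.39-fold higher (2.16 to 2.66). The authors' deposited table lists an adjusted p of 0.0160 for it. No other member was under 0.05 in this tissue, where 0.761% of all genes over the floor were in the authors' deposited table. THBS1 had 430.3 and 289 (1.49-fold lower, 1.28 to 1.73), and THBS2 had 170.0 and 159.6, with an interval that included equal levels. TNR had 757 and 1022 (ratio 1.35, 1.23 to 1.49) and VWF had 764 and 1003 (ratio 1.31, 1.19 to 1.44), beside endothelial markers that summed to 304 and 386 RPM. TNN (21.4 and 19.6) and CHAD (21.4 and 14.4) had intervals that included equal levels.

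Integrins of the pituitary differed by 1.64-fold or less in all 15 cases. ITGB3 had 108 and 65.9 (1.64-fold lower, 1.19 to 2.26), ITGA2 had 239 and 159 (1.51-fold lower, 1.23 to 1.86) and ITGA1 had 266 and 202 (1.32-fold lower, 1.09 to 1.59). The chains of the fibronectin receptors were lower or level here, ITGA5 at 549 and 429 (1.28-fold lower, 1.12 to 1.45), ITGAV at 1156 and 965 (1.20-fold lower, 1.10 to 1.31), ITGB1 at 5957 and 6086 and ITGB5 at 1022 and 1043. ITGA2B had 106 and 144 (ratio 1.36, 1.05 to 1.76) and ITGA3 had 1139 and 1274 (ratio 1.12, 1.03 to 1.21). The other 8 chains, ITGB1 and ITGB5 among them, had intervals that included equal levels.

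CD36 in the pituitary had 36.9 and 17.5 (2.11-fold lower, 1.16 to 3.99), which rests on 38 and 17 reads. SV2A had 697 and 880.2 (ratio 1.26, 1.14 to 1.40) and SV2B 90.3 and 135 (ratio 1.49, 1.14 to 1.97), so both synaptic vesicle genes were higher in the pituitary as in the hypothalamus. Neuron markers summed to 548 and 467 RPM in the pituitary, with 2 of 4 above 0. SDC1 had 833 and 692 (1.20-fold lower, 1.09 to 1.33), CD44 had 829.6 and 934 (ratio 1.13, 1.02 to 1.24), and SDC4 (289 and 253) and HMMR (15.5 and 9.26) had intervals that included equal levels.

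Across the 3 tissues no member was 2-fold different the same way in all of them, and 21 of the 41 over the floor in all 3 were 2-fold different in none. COL1A2, COL4A6, COL6A2, COL6A3 and COL9A2 had a log2 fold below 0 in every tissue with the values as deposited. In the hypothalamus the intervals of COL4A6 and COL6A3 included equal levels. How many of all genes lay below 0 in every tissue, or were 2-fold different in none, was not counted. Within 1 tissue, 49.8% (hypothalamus), 49.7% (pituitary) and 50.4% (ovary) of all genes over the floor lay above 0. The 5 members below 0 throughout are collagens, out of 10 collagens over the floor in all tissues. No laminin or integrin chain kept 1 direction throughout with the values as deposited. With equal library totals ITGB4 was below 0 in all 3 tissues, in the hypothalamus by very little (34.9999 RPM in estrus and 34.9733 in anestrus). COL4A2 was the only member above 0 in all 3, and with equal library totals it was below 0 in the ovary and the pituitary. The tissues of a state may come from the same sows, so they are not independent of each other.

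By level, in RPM and averaged over both states, 39 of the 48 members over the floor in at least 1 tissue were highest in the ovary, 5 in the pituitary and 4 in the hypothalamus. The share of all genes highest in each tissue was not counted, so these counts are not read as particular to the members. COL1A2 averaged 6956 RPM in the ovary, 421 in the pituitary and 120 in the hypothalamus. ITGA11 and IBSP had low levels outside the ovary, ITGA11 being at 122 there against 0.612 in the pituitary and 0.478 in the hypothalamus, and IBSP at 27.9 against 0.147 and 0.0969. SV2A showed the reverse order, with 518 in the hypothalamus, 45.7 in the pituitary and 0.407 in the ovary, and TNR was at 35.8, 51.5 and 0.0931. The tables of the tissues were normalised separately, so these levels are set side by side without a test.

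The makeup of the matrix RNA in the ovary differed between the states. Collagens of the pathway took 1.71% of all ovary reads in estrus and 1.06% in anestrus, and FN1 0.0461% and 1.41%. The 26 collagen rows without the entry summed to 10071 RPM in the estrous and 13298 RPM in the anestrous ovary. Those rows went the other way, but by less than the collagens with the entry. All collagen rows together thus also took a smaller share in anestrus. Integrins took 0.160% and 0.321%, other ligands 0.136% and 0.389%, other receptors 0.0213% and 0.0908%, and laminins 0.149% and 0.111%. All members together took 2.22% of the estrous and 3.38% of the anestrous ovary reads. In the pituitary they took 0.315% and 0.283%, and in the hypothalamus 0.186% and 0.192%, where the share of other receptors (0.0523% and 0.0823%) was mostly SV2A.

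**Figure D5:**
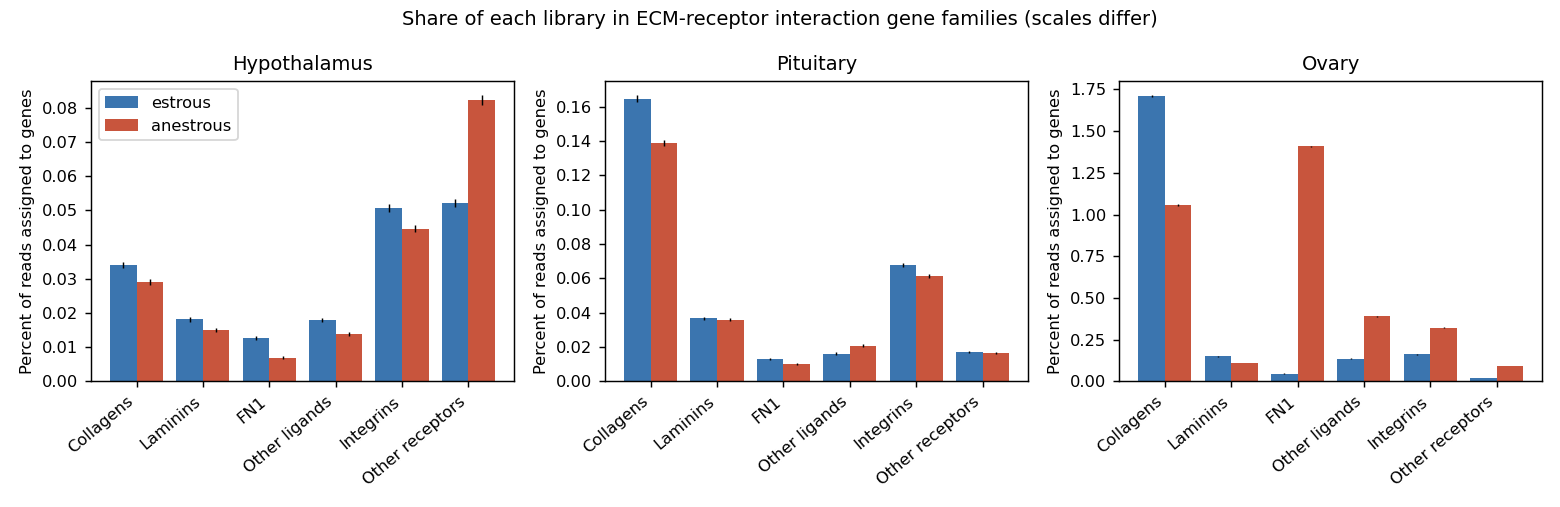
Percent of the reads assigned to genes that each family of members took in the estrous and anestrous library of each tissue, with 95% exact binomial intervals; the vertical scales differ between tissues. In the ovary collagens go from 1.71% to 1.06% and FN1 from 0.0461% to 1.41%.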

How the data were processed

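Per the labels' protocols, organs were snap-frozen, RNA was isolated with Trizol and an Illumina TruSeq RNA kit was used for the libraries. TopHat2 2.1.0 was among the tools, per the submitters' processing notes. The counter, genome build, annotation and use of strand are not given in the sources used here. Values of overlapping genes and near-identical copies are therefore uncertain. The deposited signal is a normalised read count, 1 per gene and library, with 1 table per tissue. All values above 0 (100%) were whole multiples of the column's smallest within 0.01 of a read, which gave the reads. The adjusted p-values are the authors' as deposited, from 1 library against 1, and describe those libraries and not the states.

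Members were the genes with the pathway entry ECM-receptor interaction. The members and all gene lists were chosen with earlier results of these data known. One row of the entry is not reported here. Named were FN1, members at least 2-fold different, the 3 members of each family with the highest mean, the members next to the floor, and up to 4 genes of each comparison list. Further members were added to account for all of them. Genes without the entry, other than those of the lists, were named after their values were seen.

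Log2 folds used a pseudocount of 1, which understates differences of genes with few reads, and ratios used none. RPM refers to reads assigned to genes. Reads copied by PCR and not marked by molecular identifiers are not independent, so intervals cover counting error only. Other settings tried were library totals made equal, scaling by a trimmed mean of log ratios, a pseudocount of 5, no floor, floors of 50 and 200, and an adjusted p, as deposited, of at most 0.05. Added after the data were seen was a count test on the recovered reads with tissue as a block (R 4.3.3, with DESeq2 1.42.0 and the quasi-likelihood test of edgeR 4.0.16), which treats tissues as replicates. The counting rule was run on simulated reads with counting error only, and the count test on simulated counts with 1 fixed spread. Neither run bears on how far sows of a state differ.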

Additional observations from a re-analysis of the deposited data

Results flagged for a closer look

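Each of 3 members was at least 2-fold different in opposite directions in a pair of tissues, with counting intervals that exclude equal levels. The difference between the tissues was not tested, since each tissue has 1 library per state. ITGB3 had a log2 fold of 2.60 in the ovary and -1.18 in the hypothalamus, 3.78 apart, and its value in the hypothalamus rests on 41 and 17 reads. CD36 was at 1.31 in the ovary and -1.04 in the pituitary, 2.35 apart, with 38 and 17 reads in the pituitary. SV2B was at 1.58 in the hypothalamus and -1.47 in the ovary, 3.06 apart, with 95 and 31 reads in the ovary.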

How the results depend on the processing

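The alternatives were run on the members' counts of calls, on their median and on FN1, 71 values in all with those of the count test. The count test gives the members at an adjusted p of at most 0.05 for 1 state difference common to the tissues. It was set beside the members 2-fold the same way in all tissues, an unlike measure, and both numbers were 0. Of the 71 values, 46, those of the count test among them, stayed within 1.5 times the count or within a limit set from counting error. For FN1 that limit was its own counting interval. For a median it came from the counting interval of the single member nearest to it, and so depends on the reads of 1 gene. Beyond these limits, 10 counts were lower and 7 higher, 8 medians or values of FN1 moved, and 0 changed sign. Single members were not part of this, and COL4A2 did change sign with equal library totals. The trimmed mean of log ratios left all of them within those limits. With equal library totals, members lower were 4 in the hypothalamus, 2 in the pituitary and 8 in the ovary, the members' medians were -0.23, -0.29 and 0.094, and FN1 was at -0.31 in the pituitary and 4.93 in the ovary. With no floor, 2 members were higher and 2 lower in the hypothalamus, 2 higher and 3 lower in the pituitary, and the ovary median was 0.38. Floors of 50 and of 200 left 0 members lower in the hypothalamus and 0 in the pituitary, where ITGB3 and CD36 have few reads. In the ovary a floor of 50 gave a median of 0.38, and a floor of 200 left 1 lower member (COL6A5) and a median of 0.77. A pseudocount of 5 left 0 lower members in the pituitary. Requiring the authors' adjusted p left 2 higher and 0 lower members in the ovary and 0 lower ones in the hypothalamus and in the pituitary. The count test over all tissues made 0 calls among 14444 genes by edgeR's quasi-likelihood test and 49 by DESeq2, and 0 of 48 members by either. That test is the only one that pairs the libraries, by tissue. No paired analysis was possible within a tissue because each state has 1 library, which also leaves no replicate to leave out. Depth limits the genes with few reads, such as COMP, HMMR and CD36 outside the ovary.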
